A study of Arabidopsis thaliana with 8 samples.

Results

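The 43 genes described here encode the chlorophyll-binding antenna proteins of photosystems I and II and subunits of both photosystems whose genes lie in the nucleus. They were chosen by locus name: 6 LHCA genes of the photosystem I antenna, 15 LHCB genes of the photosystem II antenna, 12 PSA genes of photosystem I and 10 PSB genes of photosystem II, out of 24132 genes listed in at least 1 library. RNA sequencing was done on 3-week-old Arabidopsis thaliana of the ecotype Columbia-0, in 4 groups of 2 libraries, with whole plants as the labelled tissue. Droughted OE plants overexpressed the transcription factor VaWRKY14 and had been without water for 5 days. Droughted WT plants were wild type with the same treatment. Watered OE plants and watered WT plants were grown under normal conditions. OE plants are labelled as a mixture of transgenic plants, and the promoter that drives the transgene is not given in the sources used here. In replicate 1 of droughted OE, the genotype is given as VaWRKY15 although title and source say VaWRKY14, and it was kept in the OE group.

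Light-harvesting proteins bind chlorophyll and pass excitation energy to the reaction centres, where charge separation drives electrons from water through photosystem II and photosystem I to ferredoxin. The reaction-centre proteins themselves are encoded in the chloroplast, while the antenna and many smaller subunits are nuclear genes whose products are imported. Transcripts of these nuclear genes are among the most abundant in green tissue, respond to light and to signals from the chloroplast, and are known to decline under water deficit and senescence.

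Libraries held 9591274 to 11378571 expected counts, the authors' estimated reads per gene, and the 43 genes took 5.73% to 15.0% of them. Levels are given in CPM, with each library's total adjusted by its TMM factor, and 3 counts correspond to 0.242 to 0.313 CPM. Of 19259 genes tested, 43 were members. A gene was called at an edgeR quasi-likelihood p under 0.05 after Benjamini-Hochberg adjustment over all of these, and every standard error (SE) given with a log2 fold change comes from groups of 2 libraries. The labels do not say whether replicates were separate plants or pools, so p-values measure the spread between these samples, which may be technical. Root markers were sparse for a whole-plant sample. EXPA7, EXPA18 and LRX1 (root hair genes) were not listed in any library, CASP1 (endodermis) was at or below 0.0807 CPM, and the 8 root markers summed to 18.4 and 25.2 CPM in droughted OE plants and 30.7 and 18.6 CPM in droughted WT plants, against 44.2 and 46.3 CPM in watered OE plants and 54.1 and 37.8 CPM in watered WT plants. PYK10 held most of this difference, at 10.3 to 23.1 CPM in droughted libraries against 30.7 to 48.9 CPM in watered ones. COW1 was lower under drought too, at no more than 0.968 CPM against at least 1.76 CPM. ESB1 went the other way, at 6.88 to 7.32 CPM under drought against 3.51 to 6.04 CPM, so the root markers did not move together.

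Levels of different genes are compared here per length, in the deposited FPKM. LHCB1.3 (AT1G29930), a major subunit of the trimeric photosystem II antenna, stood first among all genes by mean FPKM, with 11534 and 14733 FPKM in droughted OE plants and 11721 and 7982 FPKM in droughted WT plants, against 24702 and 29005 FPKM in watered OE plants and 19630 and 22739 FPKM in watered WT plants. Its neighbour in that order among the members was LHCB1.5 (AT2G34420), with 7038 and 7712 FPKM in droughted OE plants and 7650 and 5368 FPKM in droughted WT plants, against 14182 and 16120 FPKM in watered OE plants and 9772 and 11268 FPKM in watered WT plants. The ranges of these 2 genes did not overlap within any group. PSBR (AT1G79040), a small subunit near the oxygen-evolving site, was the next member, with 4484 and 4340 FPKM in droughted OE plants and 6091 and 4289 FPKM in droughted WT plants, against 6901 and 8284 FPKM in watered OE plants and 6209 and 6208 FPKM in watered WT plants. In droughted WT plants the ranges of PSBR and LHCB1.5 overlapped, and in the other groups they did not. At the other end, LHCA6 (AT1G19150) had 38.9 and 36.2 FPKM in droughted OE plants and 40.1 and 34.97 FPKM in droughted WT plants, against 63.1 and 82.2 FPKM in watered OE plants and 64.98 and 77.95 FPKM in watered WT plants. LHCB4.3 (AT2G40100) had 35.1 and 23.1 FPKM in droughted OE plants and 29.3 and 31.6 FPKM in droughted WT plants, against 29.99 and 30.1 FPKM in watered OE plants and 20.3 and 26.4 FPKM in watered WT plants. LHCB7 (AT1G76570), the rarest, had 9.62 and 8.36 FPKM in droughted OE plants and 13.00 and 12.02 FPKM in droughted WT plants, against 8.91 and 8.31 FPKM in watered OE plants and 7.52 and 6.02 FPKM in watered WT plants. The lowest 3 members did not share a range with each other in any group, and LHCB7 ranked 10523rd among all genes by mean FPKM.

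Under drought nearly the whole set fell in both genotypes. Here and below, a count of genes that fell or rose is of genes called lower or higher. In OE plants 40 of the 43 genes fell and 0 rose (among all genes tested 9.92% fell and 6.77% rose), with a median log2 fold change of -1.29 over the members and 0.02 over all genes tested. In WT plants 37 fell and 1, LHCB7, rose (7.37% of all genes tested fell and 5.63% rose), with a median of -0.96 over the members and 0.02 over all genes. Of the falls, 36 in OE plants and 17 in WT plants were at least 2-fold, as were 1.57% and 1.47% of all genes tested. These 2-fold counts depended on the scaling. Without the TMM factor the members' median was -0.93 in OE plants and -0.72 in WT plants, both short of 2-fold. All 37 genes that fell in WT plants also fell in OE plants, where they made up 92.5% of the calls. LHCA5, LHCB2.1 and PSBR passed the test in OE plants alone, and LHCB1.1, LHCB4.3 and LHCB7 were called lower in neither. LHCB1.1 was nonetheless at 36.9% of its watered mean in OE plants and 29.0% in WT plants. By role, 6 of 6 photosystem I antenna genes, 12 of 15 photosystem II antenna genes, 12 of 12 photosystem I subunit genes and 10 of 10 photosystem II subunit genes fell in OE plants, and 5, 11, 12 and 9 of them in WT plants. The medians of these roles ran over -1.34 to -1.19 in OE plants and -1.01 to -0.87 in WT plants. In CPM, both droughted libraries were below both watered libraries for 43 of 43 genes in OE plants (29.3% of all genes) and for 40 of 43 in WT plants (25.7% of all genes). LHCB7 was the 1 gene with both droughted WT libraries above both watered ones (28.8% of all genes). In FPKM, LHCB4.3 and LHCB7 overlapped in OE plants, and LHCB4.3 also lay above in WT plants. The heat map of levels by library, in CPM, shows the block of low values under drought.

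**Figure D1:**
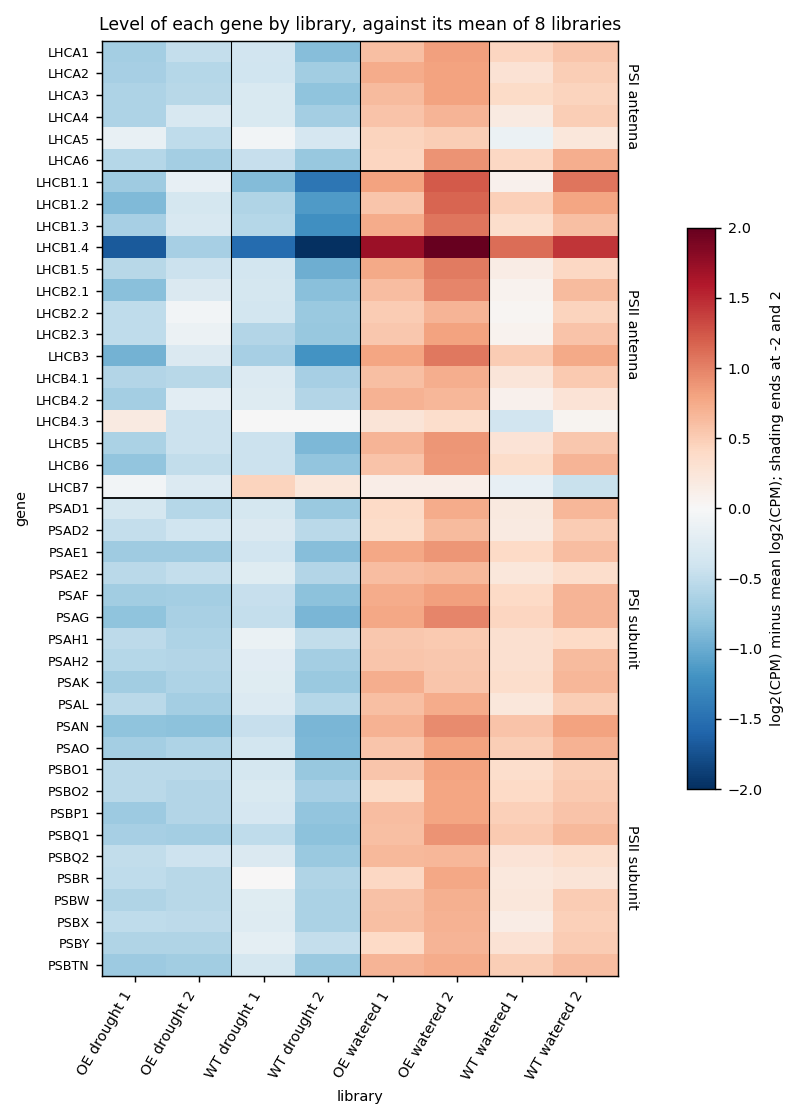
Level of each of the 43 genes (rows, grouped by role) in each of the 8 libraries (columns), as log2 CPM minus the gene's mean over the 8 libraries, where red is above and blue below that mean. The 4 droughted libraries on the left are mostly blue and the 4 watered libraries mostly red, with LHCB1.4 the strongest row and LHCB4.3 and LHCB7 departing from the pattern.

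In WT plants the number of calls depended on single libraries: 21 genes fell when droughted WT replicate 2 was left out and 26 when watered WT replicate 2 was, where LHCB7 was not called. Without the first droughted WT library LHCB7 was not called either. Of the 37 falls, 20 held whichever library was left out. LHCA4, LHCB1.2, LHCB1.4, LHCB1.5, LHCB2.2, LHCB2.3, LHCB4.1, LHCB4.2, PSAD1, PSAD2, PSAE2, PSAH1, PSAL, PSBQ2, PSBW, PSBX and PSBY were lost in at least 1 such fit. In OE plants 36 of 40 held, and LHCB1.3, LHCB1.4, LHCB2.1 and LHCB2.2 were lost in at least 1. Without the library whose genotype label names VaWRKY15, 37 of the 40 held and the members' median was -1.21. Without the TMM factor the median over all genes tested moved up to 0.37 in OE plants and 0.27 in WT plants, and relative to it the members' median was -1.30 and -0.98. In that scaling 40 members fell in OE plants and 36 in WT plants, while 7500 of all genes rose and 696 fell in OE plants, in place of 1303 and 1911, and 4062 rose and 729 fell in WT plants, in place of 1085 and 1420. The summed transcripts of 8 flower genes moved with drought in the other direction, at 81.5 and 60.0 CPM in droughted OE plants and 35.9 and 40.8 CPM in droughted WT plants, against 6.02 and 22.6 CPM in watered OE plants and 27.1 and 21.0 CPM in watered WT plants. Gene by gene, each of the 8 was higher in both droughted OE libraries than in both watered OE libraries. In WT plants AG, AP1 and SEP1 overlapped, with AG at 2.26 and 2.51 CPM under drought against 3.12 and 1.54 CPM with watering. All 8 were listed and none of the 8 was at 0 under drought. The part of flower tissue in the falls of photosystem genes was not tested. In whole plants, fewer green cells and less of these RNAs per cell cannot be told apart.

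The photosystem I antenna is a belt of LHCA1 (AT3G54890) to LHCA4 (AT3G47470) on one side of the core. LHCA2 (AT3G61470) had 2331 and 2475 CPM in droughted OE plants and 2786 and 2264 CPM in droughted WT plants, against 6158 and 6442 CPM in watered OE plants and 4499 and 5162 CPM in watered WT plants. Both droughted groups lay below both watered groups, and the log2 fold change under drought was -1.39 ± 0.18 (adjusted p = 0.000205) in OE plants and -0.94 ± 0.18 (adjusted p = 0.00331) in WT plants. LHCA1, LHCA3 (AT1G61520) and LHCA4 fell as well, with changes of -1.29 ± 0.20, -1.31 ± 0.19 and -1.08 ± 0.19 in OE plants and -1.09 ± 0.20, -0.95 ± 0.19 and -0.82 ± 0.19 in WT plants. LHCA5 (AT1G45474) and LHCA6 are minor antenna proteins that join photosystem I to the chloroplast NDH complex. LHCA6 had 40.3 and 37.4 CPM in droughted OE plants and 43.7 and 35.5 CPM in droughted WT plants, against 80.8 and 112 CPM in watered OE plants and 79.7 and 98.7 CPM in watered WT plants, and fell by 1.31 in OE plants and 1.17 in WT plants on the log2 scale. LHCA5 had 84.99 and 66.2 CPM in droughted OE plants and 90.3 and 74.5 CPM in droughted WT plants, against 128 and 133 CPM in watered OE plants and 87.01 and 111 CPM in watered WT plants. Its droughted and watered WT libraries overlapped, and the change was -0.79 ± 0.15 (adjusted p = 0.00277) in OE plants and -0.27 ± 0.15 (adjusted p = 0.275) in WT plants, with the difference between these responses at -0.52 ± 0.21 (adjusted p = 0.328).

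The trimers of the photosystem II antenna are built from LHCB1, LHCB2 and LHCB3 (AT5G54270). The 5 LHCB1 genes have 1 exon each. LHCB1.1 (AT1G29920), LHCB1.2 (AT1G29910) and LHCB1.3 lie together at chr1:10472280-10479114, and LHCB1.4 (AT2G34430) and LHCB1.5 lie head to head at chr2:14522524-14525918 (TAIR10.1). The coding sequences of the chromosome 1 copies are 95.6% to 96.4% identical, those of LHCB1.4 and LHCB1.5 92.5%, and LHCB1.4 is 87.0% identical to LHCB1.3. The 60 coding bases below, coding bases 220 to 279 of LHCB1.3 (RefSeq, TAIR10.1), are the stretch without gaps in which the copies differ most, shown because only such positions can tell reads of the copies apart. Capitals mark bases that differ from LHCB1.3.
LHCB1.3: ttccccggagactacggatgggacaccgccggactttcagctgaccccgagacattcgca
LHCB1.2: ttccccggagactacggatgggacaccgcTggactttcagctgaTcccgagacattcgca
LHCB1.1: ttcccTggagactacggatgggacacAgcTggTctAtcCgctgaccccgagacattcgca
LHCB1.5: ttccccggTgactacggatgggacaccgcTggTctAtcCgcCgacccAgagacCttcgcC
LHCB1.4: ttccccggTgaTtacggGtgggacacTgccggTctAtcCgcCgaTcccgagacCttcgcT
In this stretch LHCB1.2 differs from LHCB1.3 at 2 bases, LHCB1.1 at 6, LHCB1.5 at 9 and LHCB1.4 at 11. Over the annotated mRNAs, 10.6% to 20.5% of 50-base windows of an LHCB1 gene recur in another LHCB1 gene, as do 20.2% of LHCB2.1 (AT2G05100) and 28.2% of LHCB2.2 (AT2G05070) windows within LHCB2. Values of single copies are therefore uncertain, and the copies are also given as sums. Whether reads that match several copies were kept is not given in the sources used here. Of the other members, LHCA2 shared 8.76% of its windows with AT5G28450, which leaves its level uncertain too, and the remaining 35 shared none.

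Summed over its copies, LHCB1 had 21369 and 26661 CPM in droughted OE plants and 23475 and 15082 CPM in droughted WT plants, against 59207 and 75134 CPM in watered OE plants and 43406 and 52721 CPM in watered WT plants. The sum fell under drought by 1.48 ± 0.28 on the log2 scale in OE plants (adjusted p = 0.00208) and by 1.32 ± 0.27 in WT plants (adjusted p = 0.00505). Without the first droughted OE library the OE change was -1.33 (adjusted p = 0.0528). LHCB2, a subunit phosphorylated in state transitions, summed to 524 and 721 CPM in droughted OE plants and 608 and 464 CPM in droughted WT plants, against 1163 and 1380 CPM in watered OE plants and 827 and 1143 CPM in watered WT plants. It changed by -1.03 ± 0.20 (adjusted p = 0.00443) in OE plants and -0.88 ± 0.20 (adjusted p = 0.0125) in WT plants. The OE call was lost without the first droughted OE library (-0.81, adjusted p = 0.0618), and the WT call without the second droughted WT library (-0.69, adjusted p = 0.142) or the second watered WT library (-0.63, adjusted p = 0.0938). In neither sum did a droughted library reach a watered one. LHCB3, encoded by a single gene, changed by -1.51 ± 0.24 (adjusted p = 0.000912) in OE plants and -1.54 ± 0.24 (adjusted p = 0.000997) in WT plants.

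LHCB1.4 had the largest fold change of the 43 genes in both genotypes. Its level was 439 and 892 CPM in droughted OE plants and 488 and 242 CPM in droughted WT plants, against 4636 and 6382 CPM in watered OE plants and 3055 and 3799 CPM in watered WT plants. No droughted library reached a watered one, and the change was -3.05 ± 0.50 (adjusted p = 0.0121) in OE plants and -3.23 ± 0.50 (adjusted p = 0.012) in WT plants, a drought level of 12.1% of the watered level in OE plants and 10.7% in WT plants. The call was lost without the second watered OE library in OE plants (-2.80, adjusted p = 0.0668) and without the second watered WT library in WT plants (-3.07, adjusted p = 0.0608). LHCB1.4 made up 2.06% and 3.35% of LHCB1 counts in droughted OE plants and 2.08% and 1.61% in droughted WT plants, against 7.83% and 8.49% in watered OE plants and 7.04% and 7.21% in watered WT plants. LHCB1.3 supplied 55.9% to 60.5% of LHCB1 counts in all 8 libraries.

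The other copies had smaller changes. LHCB1.3 changed by -1.39 ± 0.27 (adjusted p = 0.00266) in OE plants and -1.34 ± 0.27 (adjusted p = 0.00391) in WT plants. LHCB1.5, which lies beside LHCB1.4, had 6532 and 7134 CPM in droughted OE plants and 7471 and 4888 CPM in droughted WT plants, against 16273 and 19722 CPM in watered OE plants and 10738 and 12784 CPM in watered WT plants, with changes of -1.40 ± 0.24 (adjusted p = 0.00109) in OE plants and -0.93 ± 0.23 (adjusted p = 0.016) in WT plants. LHCB1.1 had 435 and 640.1 CPM in droughted OE plants and 392 and 261 CPM in droughted WT plants, against 1240 and 1678 CPM in watered OE plants and 756 and 1497 CPM in watered WT plants. Its droughted libraries were below its watered ones, but the 2 watered WT libraries lay far apart, and the change missed the threshold at -1.44 ± 0.42 (adjusted p = 0.0753) in OE plants and -1.79 ± 0.42 (adjusted p = 0.0507) in WT plants. The WT change of LHCB1.1 was called by DESeq2 (adjusted p = 0.00228) and without the first (-2.20, adjusted p = 0.00117) or second (-1.21, adjusted p = 0.0356) watered WT library or the first (-1.79, adjusted p = 0.0455) or second (-1.79, adjusted p = 0.0469) droughted OE library.

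**Figure D2:**
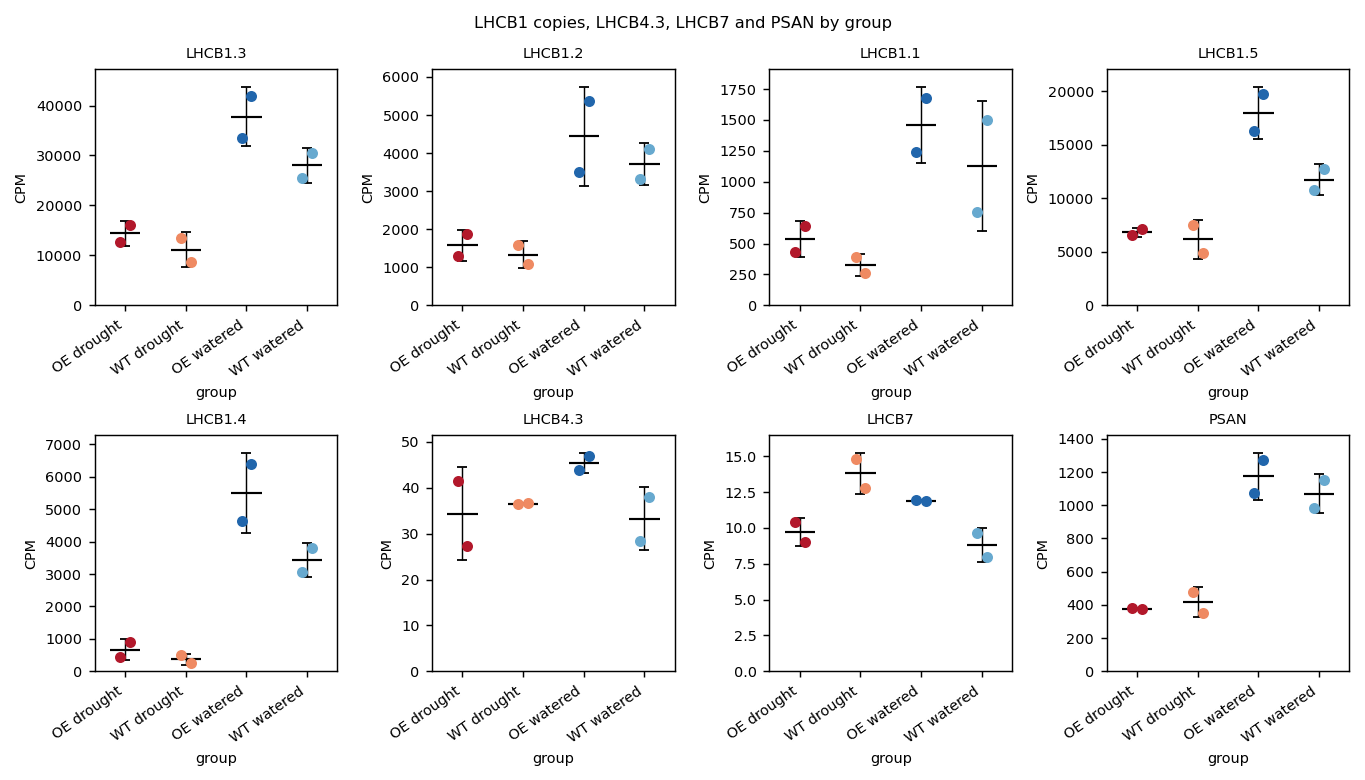
Level in CPM (vertical axes, each starting at 0) of the 5 LHCB1 copies, LHCB4.3, LHCB7 and PSAN in the 4 groups. Points are libraries, black lines the mean of 2 libraries and bars the SD. LHCB1.4 is at most 892 CPM in the droughted libraries and at least 3055 CPM in the watered ones, while LHCB4.3 and LHCB7 stay within 27.3 to 47.0 CPM and 7.98 to 14.8 CPM.

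The monomeric antenna proteins LHCB4, LHCB5 (AT4G10340) and LHCB6 (AT1G15820) connect the trimers to the photosystem II core. LHCB6 had 726 and 885 CPM in droughted OE plants and 929 and 719.8 CPM in droughted WT plants, against 1856 and 2278 CPM in watered OE plants and 1615 and 2009 CPM in watered WT plants. Its droughted libraries all lay below its watered ones, with a change of -1.36 ± 0.19 (adjusted p = 0.000252) in OE plants and -1.14 ± 0.19 (adjusted p = 0.00105) in WT plants. LHCB5 changed by -1.31 ± 0.20 (adjusted p = 0.000558) in OE plants and -1.06 ± 0.20 (adjusted p = 0.00273) in WT plants, and LHCB4.1 (AT5G01530) by -1.24 ± 0.19 (adjusted p = 0.000542) in OE plants and -0.84 ± 0.19 (adjusted p = 0.00782) in WT plants. LHCB4.2 (AT3G08940) changed by -1.12 ± 0.18 (adjusted p = 0.000877) in OE plants and -0.59 ± 0.18 (adjusted p = 0.0423) in WT plants. LHCB4.3, a rarer LHCB4 gene, did not follow these genes, with 41.5 and 27.3 CPM in droughted OE plants and 36.5 and 36.7 CPM in droughted WT plants, against 43.8 and 46.99 CPM in watered OE plants and 28.4 and 38.1 CPM in watered WT plants. Its change was -0.40 ± 0.19 (adjusted p = 0.18) in OE plants and 0.14 ± 0.19 (adjusted p = 0.707) in WT plants, neither past the threshold. Without the first droughted OE library the OE change of LHCB4.3 was -0.73 (adjusted p = 0.020), and without the first watered WT library its WT change turned to -0.06. Its share of LHCB4 counts was 1.43% and 0.837% in droughted OE plants and 0.986% and 1.28% in droughted WT plants, against 0.639% and 0.65% in watered OE plants and 0.561% and 0.628% in watered WT plants.

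LHCB7, at chr1:28728998-28730851 on the plus strand (TAIR10.1), is a divergent, weakly expressed member of the family. It was the 1 gene that rose, and did so in WT plants. Its level was 10.4 and 9.04 CPM in droughted OE plants and 14.8 and 12.8 CPM in droughted WT plants, against 11.95 and 11.88 CPM in watered OE plants and 9.66 and 7.98 CPM in watered WT plants. Droughted WT libraries were the highest and lay above the watered WT libraries, while droughted OE libraries lay below the watered OE libraries. The drought change was -0.29 ± 0.17 (adjusted p = 0.257) in OE plants and 0.64 ± 0.17 (adjusted p = 0.0192) in WT plants. The difference between these responses, -0.93 ± 0.24 (adjusted p = 0.108), did not pass the test. The WT rise was not called by DESeq2 (0.63, adjusted p = 0.102), without the first droughted WT library (0.52, adjusted p = 0.131) or without the second watered WT library (0.51, adjusted p = 0.151), and the OE change turned to 0.06 without the TMM factor.

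All 12 nuclear photosystem I subunit genes fell in both genotypes. PSAN (AT5G64040), a subunit on the lumenal side where plastocyanin docks, had 379 and 376 CPM in droughted OE plants and 480.2 and 352 CPM in droughted WT plants, against 1073 and 1275 CPM in watered OE plants and 986 and 1155 CPM in watered WT plants. It had the smallest adjusted p of the members, with changes of -1.64 ± 0.17 (adjusted p = 4.15e-05) in OE plants and -1.36 ± 0.17 (adjusted p = 0.000143) in WT plants. PSAF (AT1G31330), which binds plastocyanin, had 1067 and 1089 CPM in droughted OE plants and 1265 and 983 CPM in droughted WT plants, against 2912 and 3070 CPM in watered OE plants and 2290 and 2792 CPM in watered WT plants, and changed by -1.47 ± 0.18 (adjusted p = 0.000107) in OE plants and -1.18 ± 0.18 (adjusted p = 0.000523) in WT plants. PSAG (AT1G55670), an anchor of the LHCA belt, had 1414 and 1581 CPM in droughted OE plants and 1771 and 1308 CPM in droughted WT plants, against 4206 and 4854 CPM in watered OE plants and 3338 and 3975 CPM in watered WT plants. The change of PSAG was -1.60 ± 0.19 (adjusted p = 0.000112) in OE plants and -1.25 ± 0.19 (adjusted p = 0.000652) in WT plants. In each of these 3 genes all droughted libraries lay far below all watered ones. PSAK (AT1G30380), on the other side of the core, changed by -1.29 ± 0.18 (adjusted p = 0.000324) in OE plants and -0.98 ± 0.18 (adjusted p = 0.00263) in WT plants.

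Ferredoxin docks on the stromal ridge formed by PSAD and PSAE, each encoded by a pair of genes. PSAE1 (AT4G28750) had 1157 and 1161 CPM in droughted OE plants and 1456 and 1056 CPM in droughted WT plants, against 3264 and 3497 CPM in watered OE plants and 2499 and 2933 CPM in watered WT plants. PSAE2 (AT2G20260) had 421 and 439 CPM in droughted OE plants and 520 and 409.7 CPM in droughted WT plants, against 934 and 960.4 CPM in watered OE plants and 718 and 779.5 CPM in watered WT plants. In both genes every droughted library was below every watered one. PSAE1 changed by -1.54 ± 0.18 (adjusted p = 0.000103) in OE plants and -1.11 ± 0.18 (adjusted p = 0.00105) in WT plants and PSAE2 by -1.14 ± 0.15 (adjusted p = 0.000175) in OE plants and -0.69 ± 0.15 (adjusted p = 0.00583) in WT plants. PSAE2 made up 26.7% and 27.4% of PSAE counts in droughted OE plants and 26.3% and 28.0% in droughted WT plants, against 22.3% and 21.5% in watered OE plants and 22.3% and 21.0% in watered WT plants. The share was higher in every droughted library than in any watered one. Without the second droughted WT library the WT change of PSAE2 was -0.52 (adjusted p = 0.0613). PSAD1 (AT4G02770) changed by -1.04 ± 0.20 (adjusted p = 0.00261) in OE plants and -0.98 ± 0.20 (adjusted p = 0.00444) in WT plants and PSAD2 (AT1G03130) by -0.94 ± 0.16 (adjusted p = 0.00106) in OE plants and -0.76 ± 0.16 (adjusted p = 0.0054) in WT plants.

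PSAH, PSAL (AT4G12800) and PSAO (AT1G08380) lie at the side of photosystem I where the mobile antenna docks in state transitions. PSAL had 1449 and 1318 CPM in droughted OE plants and 1745 and 1423 CPM in droughted WT plants, against 3204 and 3533 CPM in watered OE plants and 2482 and 2985 CPM in watered WT plants. It changed by -1.28 ± 0.18 (adjusted p = 0.000251) in OE plants and -0.79 ± 0.18 (adjusted p = 0.00766) in WT plants, and in WT plants PSAL was no longer called without droughted WT replicate 2 (-0.65, adjusted p = 0.0601) or the second watered WT library (-0.65, adjusted p = 0.0724). PSAO had 776 and 813 CPM in droughted OE plants and 963 and 671 CPM in droughted WT plants, against 1835 and 2176 CPM in watered OE plants and 1759 and 2027 CPM in watered WT plants, with changes of -1.33 ± 0.19 (adjusted p = 0.000262) in OE plants and -1.21 ± 0.18 (adjusted p = 0.000595) in WT plants. PSAH2 (AT1G52230) had 458 and 452 CPM in droughted OE plants and 577 and 424 CPM in droughted WT plants, against 991 and 984 CPM in watered OE plants and 845 and 1052 CPM in watered WT plants. In PSAL, PSAO and PSAH2 no droughted library reached a watered one. PSAH2 changed by -1.12 ± 0.17 (adjusted p = 0.000438) in OE plants and -0.92 ± 0.17 (adjusted p = 0.00192) in WT plants and PSAH1 (AT3G16140) by -1.10 ± 0.16 (adjusted p = 0.000312) in OE plants and -0.67 ± 0.15 (adjusted p = 0.00997) in WT plants.

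On photosystem II, the extrinsic proteins PSBO, PSBP and PSBQ shield the manganese cluster that oxidises water. PSBQ1 (AT4G21280) had 361 and 354 CPM in droughted OE plants and 401 and 322 CPM in droughted WT plants, against 865 and 1062 CPM in watered OE plants and 816 and 897 CPM in watered WT plants, and changed by -1.43 ± 0.16 (adjusted p = 6.02e-05) in OE plants and -1.24 ± 0.16 (adjusted p = 0.000144) in WT plants. The other copy, PSBQ2 (AT4G05180), is the more abundant and changed by -1.10 ± 0.18 (adjusted p = 0.000708) in OE plants and -0.81 ± 0.18 (adjusted p = 0.00666) in WT plants. PSBQ2 made up 78.7% and 80.0% of PSBQ counts in droughted OE plants and 79.5% and 77.9% in droughted WT plants, against 77.3% and 73.7% in watered OE plants and 73.7% and 72.9% in watered WT plants. The share was higher in both droughted groups than in the watered group of the same genotype. PSBP1 (AT1G06680) had 1438 and 1586 CPM in droughted OE plants and 1884 and 1387 CPM in droughted WT plants, against 3641 and 4100 CPM in watered OE plants and 3329 and 3522 CPM in watered WT plants. In PSBQ1 and PSBP1 the droughted libraries of both genotypes lay below all watered ones. PSBP1 changed by -1.36 ± 0.18 (adjusted p = 0.000239) in OE plants and -1.07 ± 0.18 (adjusted p = 0.00145) in WT plants, and PSBO1 (AT5G66570), the main manganese-stabilising protein gene, by -1.22 ± 0.19 (adjusted p = 0.000703) in OE plants and -0.96 ± 0.19 (adjusted p = 0.00417) in WT plants. PSBO1 held 85.9% to 88.0% of PSBO counts in all 8 libraries, and PSBO2 (AT3G50820) changed by -1.16 ± 0.17 (adjusted p = 0.000324) in OE plants and -0.94 ± 0.17 (adjusted p = 0.00165) in WT plants.

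Among the small photosystem II subunits, PSBTN (AT3G21055) had 755 and 772 CPM in droughted OE plants and 974 and 745 CPM in droughted WT plants, against 1989 and 2097 CPM in watered OE plants and 1748 and 1908 CPM in watered WT plants. Its droughted libraries all lay below its watered ones, and it changed by -1.42 ± 0.17 (adjusted p = 8.6e-05) in OE plants and -1.09 ± 0.16 (adjusted p = 0.000564) in WT plants. PSBY (AT1G67740) had 522 and 523 CPM in droughted OE plants and 694 and 574 CPM in droughted WT plants, against 1053 and 1268 CPM in watered OE plants and 971 and 1130 CPM in watered WT plants, with changes of -1.15 ± 0.16 (adjusted p = 0.000251) in OE plants and -0.73 ± 0.16 (adjusted p = 0.0063) in WT plants. The 2 droughted OE libraries of PSBY were the lowest of the 8. In WT plants PSBY was no longer called without droughted WT replicate 2 (-0.60, adjusted p = 0.0631) or the second watered WT library (-0.62, adjusted p = 0.053). PSBW (AT2G30570), which stabilises the complexes of photosystem II with its antenna, changed by -1.23 ± 0.18 (adjusted p = 0.000334) in OE plants and -0.80 ± 0.17 (adjusted p = 0.00687) in WT plants, and PSBX (AT2G06520) by -1.16 ± 0.18 (adjusted p = 0.000494) in OE plants and -0.75 ± 0.17 (adjusted p = 0.00968) in WT plants. PSBR had 3085 and 2976 CPM in droughted OE plants and 4409 and 2895 CPM in droughted WT plants, against 5869 and 7512 CPM in watered OE plants and 5057 and 5221 CPM in watered WT plants. Its first droughted WT library was well above the second, and the change was -1.14 ± 0.22 (adjusted p = 0.00236) in OE plants and -0.49 ± 0.21 (adjusted p = 0.149) in WT plants, so PSBR was the 1 photosystem II subunit gene that did not pass in WT plants.

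**Figure D3:**
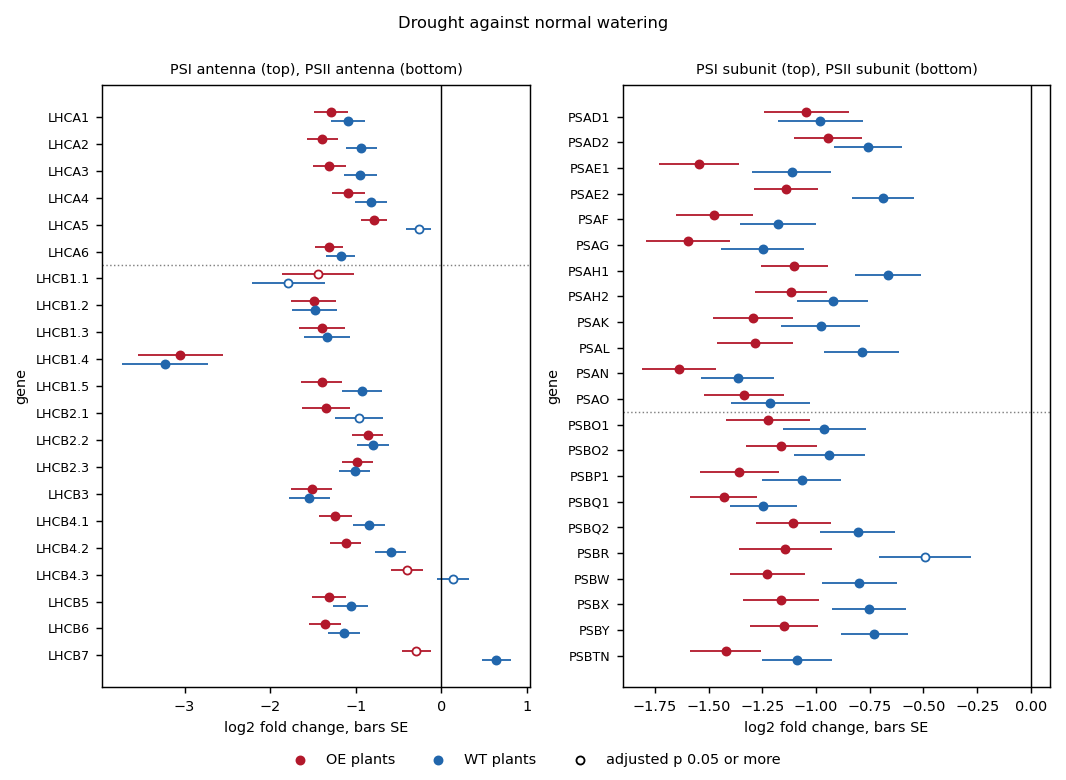
Log2 fold change of drought against normal watering (horizontal axes) for each gene in OE plants (red, upper point) and WT plants (blue, lower point), with bars for the SE. Filled points passed the edgeR test at an adjusted p under 0.05. The points lie left of 0 except for LHCB4.3 and LHCB7 in WT plants, and LHCB1.4 lies farthest left, at -3.05 in OE and -3.23 in WT plants.

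The order of the members by drought response was similar in both genotypes. Across the 43 genes the log2 fold changes of OE and WT plants had a Pearson r of 0.933 and a Spearman rho of 0.832, against 0.525 and 0.52 across all genes tested. These are descriptions across genes, which share libraries and are not independent replicates. Genes with higher mean FPKM tended to have the more negative change, with r of -0.51 in OE plants and -0.443 in WT plants across the 43 genes (rho of -0.426 and -0.226). LHCB7 and LHCB4.3, the lowest members by FPKM, also had the highest log2 fold changes in both genotypes. The relation without them was not computed.

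Summed by role, the photosystem I antenna had 8105 and 8992 CPM in droughted OE plants and 9910 and 7477 CPM in droughted WT plants, against 19747 and 21736 CPM in watered OE plants and 15831 and 17809 CPM in watered WT plants. The photosystem II antenna had 28659 and 35538 CPM in droughted OE plants and 32368 and 21735 CPM in droughted WT plants, against 77676 and 96096 CPM in watered OE plants and 57621 and 69951 CPM in watered WT plants. In each role both droughted groups lay below both watered groups, at 36.9% of the watered mean for the photosystem II antenna in OE plants and 42.4% in WT plants. For photosystem I subunits the droughted mean was 39.3% of the watered mean in OE plants and 49.2% in WT plants. Photosystem II subunits kept the most in WT plants, at 56.4%.

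In the ratio of antenna to core counts, core means the nuclear PSA and PSB genes. The chloroplast-encoded reaction-centre genes are not in it. The ratio was 1.602 and 1.928 in droughted OE plants and 1.48 and 1.378 in droughted WT plants, against 1.859 and 1.993 in watered OE plants and 1.678 and 1.75 in watered WT plants. Droughted and watered OE plants overlapped, with a difference of -0.13 on the log2 scale and a pooled SD between libraries of 0.11. Droughted WT plants lay below watered WT plants, with a difference of -0.26. OE plants lay above WT plants, by 0.30 under drought and 0.17 with normal watering. Without the LHCB1 genes, which hold most of the antenna counts, the differences were -0.01 for drought in OE plants and -0.06 in WT plants, and 0.12 under drought and 0.07 with normal watering for OE against WT. Without the first droughted OE library the drought difference in OE plants was 0.0028 and that of OE against WT under drought 0.43, and without the second they were -0.26 and 0.17. With 2 libraries against 2, an exact two-sided permutation test cannot give a p below 0.333, and none of these ratios was tested.

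The ratio of photosystem I to photosystem II counts was 0.438 and 0.393 in droughted OE plants and 0.457 and 0.5 in droughted WT plants, against 0.419 and 0.378 in watered OE plants and 0.44 and 0.435 in watered WT plants. Drought changed its log2 value by 0.06 in OE plants and 0.13 in WT plants, with a pooled SD of 0.09. OE plants lay below WT plants, with differences of -0.20 under drought and -0.14 with normal watering. Without the LHCB1 genes the sign turned, to -0.07 in OE plants and -0.09 in WT plants, with a pooled SD of 0.03, and OE and WT plants overlapped, at -0.01 and -0.03. With them, the drought difference in OE plants was -0.0192 without the first droughted OE library and 0.14 without the second, and 0.13 without the first watered OE library and -0.0144 without the second. In WT plants it was 0.19 without the first droughted WT library and 0.06 without the second. For OE against WT it was -0.28 and -0.13 under drought without the first and second droughted OE libraries, and -0.21 and -0.06 with normal watering without the first and second watered OE libraries. The direction of a shift between the photosystems thus depended on whether the LHCB1 genes were counted, and in OE plants also on single libraries.

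**Figure D4:**
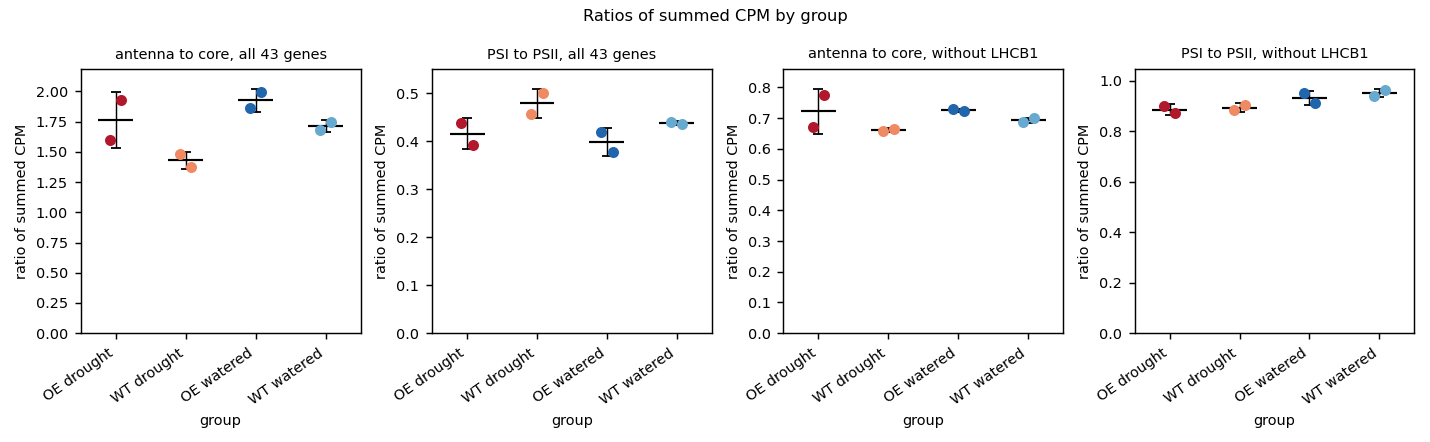
Ratios of summed CPM (vertical axes, starting at 0) by group: antenna to core genes and photosystem I to photosystem II genes, over all 43 genes and without the 5 LHCB1 genes. Core genes are the nuclear PSA and PSB genes. Points are libraries, black lines the mean of 2 libraries and bars the SD. The antenna to core ratio is lowest in droughted WT plants, at 1.48 and 1.378, and the photosystem ratio changes its order between drought and watering when LHCB1 is left out.

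Overexpression was compared with wild type in each condition. In watered plants the mean of every one of the 43 genes was higher in OE, with a median log2 fold change of 0.30 (50.0% of all genes tested were above 0, with a median of 0.00). None passed the edgeR test, as 0.389% of all genes did, and at an unadjusted p under 0.05 6 were higher (5.99% of all genes) and 0 lower (4.23%). DESeq2 called 1, LHCB1.5 (adjusted p = 0.0456), and limma 0. Both OE libraries lay above both WT libraries for 28 of the 43 genes (21.7% of all genes) and below them for 0 (18.9%). The 6 genes were LHCA5, LHCB1.5, LHCB4.2, LHCB4.3, LHCB7 and PSAE2. LHCB1.4 had 4636 and 6382 CPM in watered OE plants, against 3055 and 3799 CPM in watered WT plants, a log2 fold change of 0.68 ± 0.46 (adjusted p = 0.681). LHCB1.5 had 16273 and 19722 CPM in watered OE plants, against 10738 and 12784 CPM in watered WT plants, a log2 fold change of 0.61 ± 0.23 (adjusted p = 0.37). The smallest differences were in PSAH2, at 0.06 ± 0.16 (adjusted p = 0.94), and PSAO, at 0.08 ± 0.18 (adjusted p = 0.918). Both were just under 0 without the TMM factor, where 41 of 43 genes were above 0. By role the median was 0.37 in the photosystem II antenna, 0.30 in the photosystem I antenna, 0.22 in photosystem II subunits and 0.16 in photosystem I subunits. Over the set, the median difference was 0.15 without the first watered WT library, with 36 genes above 0, and 0.40 without the second.

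Under drought the genotypes overlapped. None of the 43 genes passed the edgeR test (0.296% of all genes did), by DESeq2 and limma none either, and at an unadjusted p under 0.05 1 was lower (4.52% of all genes) and 0 higher (4.68%). The median log2 fold change of OE against WT was -0.04, with 14 genes above 0 (48.9% of all genes). Both OE libraries lay above both WT libraries for LHCB1.1 and LHCB2.3 (AT3G27690) (19.6% of all genes) and below them for LHCB7, PSAH1 and PSBY (20.9% of all genes). LHCB7 had 10.4 and 9.04 CPM in droughted OE plants, against 14.8 and 12.8 CPM in droughted WT plants, with a log2 fold change of -0.50 ± 0.16 (adjusted p = 0.308). PSBY was at -0.28 ± 0.16 (adjusted p = 0.62). The highest values were those of LHCB1.4, at 0.87 ± 0.47 (adjusted p = 0.655), and LHCB1.1, at 0.72 ± 0.41 (adjusted p = 0.683). Both stayed above 0 whichever library was left out, but their size depended on single libraries. LHCB1.4 was at 0.27 without the second droughted OE library and 1.47 without the first droughted WT library, and LHCB1.1 at 0.41 and 1.06. Summed over the 43 genes, droughted OE libraries had 59708 and 67624 CPM and droughted WT libraries 70841 and 50417 CPM, so the OE values lay between the WT ones. Without the first droughted WT library the median was 0.15 and 38 genes were above 0, and without the second it was -0.22 and 6 were.

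**Figure D5:**
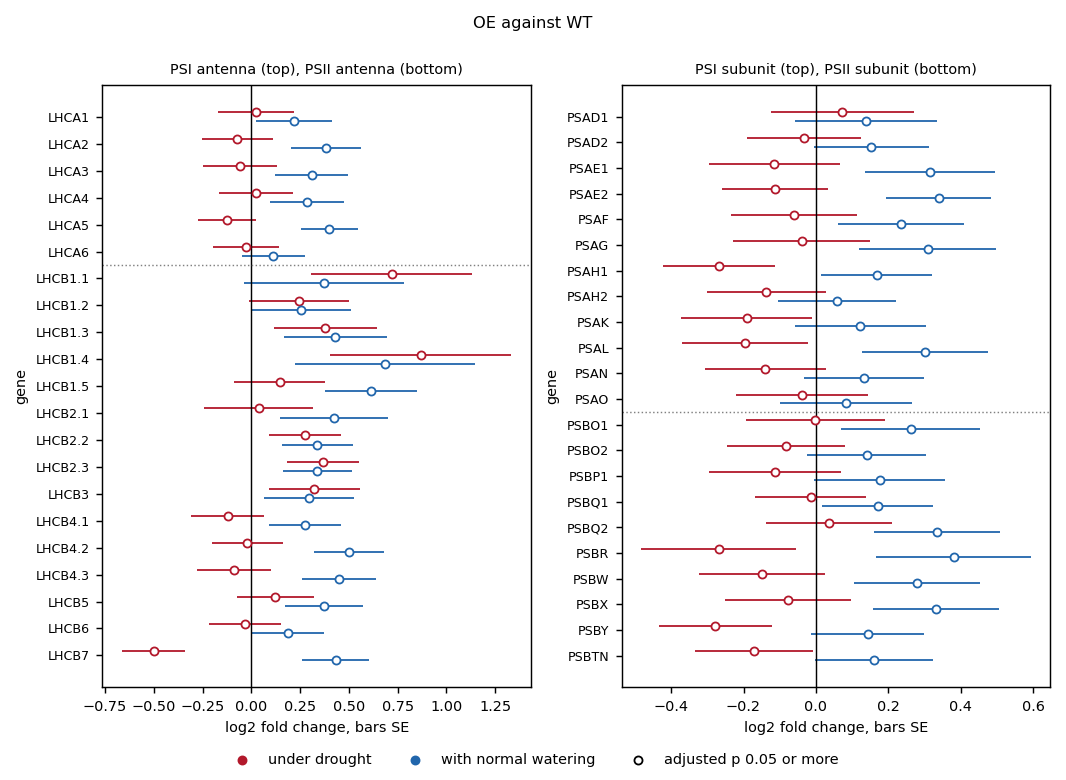
Log2 fold change of OE against WT (horizontal axes) for each gene under drought (red, upper point) and with normal watering (blue, lower point), with bars for the SE. Open points did not pass the edgeR test at an adjusted p under 0.05, which applies to all 43 genes in both conditions. The blue points lie right of 0, with a median of 0.30, and the red ones around it, with a median of -0.04.

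The log2 fold change under drought was lower in OE than in WT plants for 39 of the 43 genes (51.0% of all genes had the lower value in OE), with a median difference of -0.30. For each gene this difference is also that of OE against WT under drought less that in watered plants. Those had medians of -0.04 and 0.30, so the lower response restates the higher watered level in OE and is no separate result. The 8 flower genes, which summed to 81.5 and 60.0 CPM in droughted OE plants and 35.9 and 40.8 CPM in droughted WT plants, against 6.02 and 22.6 CPM in watered OE plants and 27.1 and 21.0 CPM in watered WT plants, differed more with drought in OE plants, and their part in this difference was not tested. None of the 43 differences passed the edgeR test (0.161% of all genes did), or DESeq2 or limma, and at an unadjusted p under 0.05 4 were lower (6.77% of all genes) and 0 higher (5.73%). These were LHCB7, LHCA5, PSAE2 and PSBR, the last at -0.65 ± 0.30 (adjusted p = 0.395). Without the first droughted WT library PSBR was at -0.29, and without the second at -0.92. The 4 genes with a less negative response in OE were LHCB1.1, at 0.35 ± 0.58 (adjusted p = 0.879), LHCB1.4, at 0.18 ± 0.65 (adjusted p = 0.957), LHCB2.3 and LHCB3. Without the TMM factor 8 genes, in place of 4, had the less negative response in OE, and the median over all genes tested moved to 0.10. LHCB1.1 turned to -0.23 without the second watered WT library, and LHCB1.4 to -0.41 without the second droughted OE library. The median difference over the members was -0.04 without the first droughted WT library and -0.49 without the second. Without the first watered WT library it was -0.16.

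Other genes of photosynthesis were counted from a list of 58, of which 57 were tested. Under drought 48 fell and 1 rose in OE plants, and 30 fell and 2 rose in WT plants, with medians of -0.69 and -0.41. Over all genes tested, 9.92% fell and 6.77% rose in OE plants and 7.37% fell and 5.63% rose in WT plants. Every gene of electron transport and ATP synthase (11), of the NDH complex (9) and of photosystem II assembly and repair (12) fell in OE plants, against 9, 6 and 6 of them in WT plants. Antenna import and assembly genes fell in 4 of 6 cases in each genotype. Of 8 genes of photoprotection, state transitions and cyclic electron flow, 6 fell in OE plants and 1, STN8, in WT plants. Of 4 regulators, 1 fell in OE plants, and 2 fell and 1 rose in WT plants. Of 7 light-harvesting-like genes, 5 fell and 1 rose in OE plants, and 2, LIL3:1 and LIL3:2, fell and 1 rose in WT plants. STN8, LIL3:1 and LIL3:2 are named here after their values were seen. The differences between the genotypes in these counts were not tested. HCF136, an assembly factor of photosystem II, had 124 and 134 CPM in droughted OE plants and 127 and 116 CPM in droughted WT plants, against 271 and 305 CPM in watered OE plants and 233 and 270.2 CPM in watered WT plants, and changed by -1.16 ± 0.13 (adjusted p = 5.59e-05) in OE plants and -1.05 ± 0.13 (adjusted p = 9.33e-05) in WT plants. HCF173, needed to translate a reaction-centre protein, changed by -1.13 ± 0.12 (adjusted p = 6.38e-05) in OE plants, as did LQY1, a repair factor, by -1.30 ± 0.14 (adjusted p = 6.38e-05). Of the NDH complex, PnsL1 changed by -1.01 ± 0.13 (adjusted p = 0.000183) in OE plants and -0.996 ± 0.13 (adjusted p = 0.000235) in WT plants and PnsB3 by -0.98 ± 0.13 (adjusted p = 0.000205) in OE plants and -0.91 ± 0.13 (adjusted p = 0.000374) in WT plants, NdhL by -1.14 ± 0.13 (adjusted p = 6.43e-05) in OE plants and PnsB4 by -0.94 ± 0.11 (adjusted p = 9.43e-05) in WT plants.

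ELIP1, an early light-induced relative of the antenna proteins with a photoprotective role, rose in both genotypes. It had 5.67 and 2.66 CPM in droughted OE plants and 5.99 and 6.64 CPM in droughted WT plants, against 0.79 and 0.63 CPM in watered OE plants and 0.68 and 0.29 CPM in watered WT plants, and changed by 2.53 ± 0.45 (adjusted p = 0.00158) in OE plants and 3.68 ± 0.46 (adjusted p = 0.000156) in WT plants, from few counts in the watered libraries. GLK2 and GPRI1 (also called GLK1) encode factors that activate antenna genes. GLK2 had 45.9 and 57.5 CPM in droughted OE plants and 78.00 and 75.3 CPM in droughted WT plants, against 54.2 and 50.4 CPM in watered OE plants and 43.1 and 43.6 CPM in watered WT plants. It rose in WT plants, by 0.82 ± 0.12 (adjusted p = 0.000451), and was at -0.02 ± 0.12 (adjusted p = 0.942) in OE plants, with the difference at -0.84 ± 0.17 (adjusted p = 0.0608). GPRI1 fell by 0.64 in OE plants (adjusted p = 0.00163) and 0.39 in WT plants (adjusted p = 0.0337) on the log2 scale. In OE against WT, 0 of the 57 genes passed the edgeR test in either condition, with 8 higher in watered plants (5.99% of all genes) and 9 lower under drought (4.52% of all genes) at an unadjusted p under 0.05.

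The promoters were read from the RefSeq genome TAIR10.1, from 250 bases before to 50 bases after each gene's annotated start, and searched on both strands for CACGTG (a G-box, which reads the same on both strands), GATAAG (an I-box) and the W-boxes TTGACC and TTGACT, the element bound by WRKY factors. CACGTG was in 16 of 43 windows (37.2%, against 7.68% of 27443 windows of all genes) and GATAAG in 18 (41.9%, against 14.6%). TTGACC was in 5 (11.6%, against 14.2%), TTGACT in 4 (9.3%, against 21.8%) and either W-box in 6 (against 32.4% of all windows). By role, CACGTG was in 7 of 10 windows of photosystem II subunits, 4 of 12 of photosystem I subunits, 4 of 15 of the photosystem II antenna and 1 of 6 of the photosystem I antenna. No window of the 5 LHCB1 genes held any of the 4 motifs. The windows of PSBQ2 and LHCB4.1 each held all 4 motifs. Printed are the 250 bases before the start of the gene that fell most, of PSBQ2 and of LHCB7. They run 5′ to 3′ on the gene's strand, with motif matches in capitals.
LHCB1.4 (chr2:14524357-14524606, plus strand): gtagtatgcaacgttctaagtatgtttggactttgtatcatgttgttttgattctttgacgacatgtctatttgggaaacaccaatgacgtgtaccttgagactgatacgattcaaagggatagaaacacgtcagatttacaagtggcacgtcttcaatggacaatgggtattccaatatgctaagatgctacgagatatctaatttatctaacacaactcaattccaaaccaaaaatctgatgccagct
PSBQ2 (chr4:2673244-2673493, minus strand): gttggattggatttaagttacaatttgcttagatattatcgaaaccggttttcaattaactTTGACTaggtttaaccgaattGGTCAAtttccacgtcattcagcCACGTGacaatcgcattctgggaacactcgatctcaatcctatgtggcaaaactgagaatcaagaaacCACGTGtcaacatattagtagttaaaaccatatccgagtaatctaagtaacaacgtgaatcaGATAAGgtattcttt
LHCB7 (chr1:28728748-28728997, plus strand): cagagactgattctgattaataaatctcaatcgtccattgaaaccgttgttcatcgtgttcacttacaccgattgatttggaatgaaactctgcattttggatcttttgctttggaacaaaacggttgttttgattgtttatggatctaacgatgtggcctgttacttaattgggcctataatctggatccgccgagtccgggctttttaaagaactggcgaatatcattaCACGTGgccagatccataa
LHCB1.4 had no match. In PSBQ2 the matches started at -189 (TTGACT), -168 (GGTCAA, the reverse complement of TTGACC), -145 and -77 (CACGTG) and -15 (GATAAG) from the gene start, and in LHCB7 CACGTG started at -19. A match is a description of these letters and not a bound site.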

How the data were processed

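Each of the 8 libraries has 1 deposited table of expected counts and FPKM per gene. Expected counts are the authors' estimated reads per gene, per the file headers, and 88.06% to 88.81% of them were whole within 0.005. Per the file headers, FPKM values are the authors' own scaling by length. STAR, HISAT2 2.0.5, featureCounts, edgeR and TAIR10 are named in the submitters' processing notes, with no role or order. Division of reads among near-identical genes was done before deposit, and its method is not given in the sources used here.

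The 43 members and the other gene lists were chosen with earlier results of these data known. A gene without a row in a library was set to 0. Expected counts were rounded and tested with edgeR 4.0.16 in R 4.3.3: genes passing filterByExpr with a minimum of 10 counts (19259 genes), TMM factors, a robust quasi-likelihood fit with 1 mean per group over all 8 libraries, 5 contrasts, and Benjamini-Hochberg adjustment over all genes tested. All 43 members passed the filter, and the biological coefficient of variation was 10.2%. Expected counts came to 9591274 to 11378571 per library, and the floor of 3 counts covers counting error only. Members shown library by library were those called with the 12 smallest adjusted p, the 2 highest and 2 lowest fold changes of each contrast, the 3 highest and 3 lowest by FPKM, and the LHCB1 and LHCB2 sums. Of the other pathway genes, up to 6 per contrast with the smallest adjusted p were named. Members named beyond these complete their families, and GPRI1 is named beside GLK2. LHCB1 and LHCB2 sums replaced their copies in a separate fit. The procedure was tested on simulated data.

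Alternatives were DESeq2 1.42.0, limma 3.58.1 on log2(FPKM + 1) and log2(FPKM + 0.1) for genes with a mean FPKM of at least 1, other scalings and filters, a fit of only the 4 libraries compared, the replicate number as a block, and each library left out. The transgene has no row in the tables.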

Additional observations from a re-analysis of the deposited data

Results flagged for a closer look

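With TMM scaling, LHCB7 had drought changes of opposite sign in the 2 genotypes. The sign in OE plants depended on the scaling, with 0.0614 without the TMM factor and 0.0538 and 0.059 in the limma fits. In FPKM the droughted and watered OE libraries overlapped, at 9.62 and 8.36 FPKM against 8.91 and 8.31 FPKM. Both droughted OE libraries were below both watered OE libraries, at 10.4 and 9.04 CPM against 11.95 and 11.88 CPM, and both droughted WT libraries were above both watered WT libraries, at 14.8 and 12.8 CPM against 9.66 and 7.98 CPM. The difference of the responses was -0.93 on the log2 scale (edgeR adjusted p = 0.108), and it did not pass the test. The same 8 values put LHCB7 lower in OE than in WT plants under drought and higher with normal watering, with the same difference of -0.93.

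PSAH1, a photosystem I subunit gene, was likewise lower in OE than in WT plants under drought, with 688 and 649 CPM in OE plants against 903 and 706 CPM in WT plants, and higher with normal watering, with 1445 and 1422 CPM in OE plants against 1236 and 1316 CPM in WT plants. The difference was -0.44 on the log2 scale (edgeR adjusted p = 0.435), and it did not pass the test.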

How the results depend on the processing

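Over all pairs of an alternative and a value that answers a comparison, 444 kept direction and call or stayed within a set limit, 30 moved beyond it, 4 lost the call and 6 changed sign. For medians and ratios of sums the limit was the spread between libraries. For counts of members called it was a fixed fold, with any change from or to 0 taken as a move. Without the TMM factor and by limma with a pseudocount of 1 or 0.1, the members' median under drought was -0.93 each time in OE plants, and -0.72, -0.73 and -0.73 in WT plants. DESeq2 called 1 member higher in watered OE against WT plants and 0 higher under drought in WT plants. Without the LHCB1 genes the log2 photosystem I to II ratio differed by -0.0133 (OE against WT, drought), -0.0318 (OE against WT, watered), -0.0727 (drought, OE) and -0.0912 (drought, WT), and the antenna to core ratio by 0.12 (OE against WT, drought), -0.0101 (drought, OE) and -0.0646 (drought, WT). With genes weighted equally the antenna to core ratio differed by 0.0006 (drought, OE) and -0.06 (drought, WT). Without the TMM factor and in both limma fits, PSAH2 in watered OE against WT plants was at -0.0243, -0.0191 and -0.0191, PSAO at -0.004, -0.0041 and -0.0041, and LHCB7 under drought in OE plants at 0.0614, 0.0538 and 0.059. The cause of these changes was not tested.

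With 1 library left out at a time, the median of OE against WT under drought ran over -0.22 to 0.15. For drought in WT plants, 21 to 39 members fell, 0 to 1 rose, and the median was -1.20 to -0.77. The median difference of the responses was -0.49 to -0.0379. The LHCB2 sum was -0.0306 to 0.44 in OE against WT under drought, -1.28 to -0.81 for drought in OE plants and -1.11 to -0.63 in WT plants, and -0.40 to 0.0774 for the difference. The LHCB1 sum was -1.65 to -1.30 for drought in OE plants and -0.45 to 0.21 for the difference. The antenna to core ratio differed by 0.17 to 0.43 in OE against WT under drought and -0.26 to 0.0028 for drought in OE plants. PSAH2 and PSAO in watered OE against WT plants were at -0.0906 to 0.23 and -0.0444 to 0.20, LHCB4.3 under drought in WT plants at -0.0613 to 0.36, and the differences for LHCB1.1 and LHCB1.4 at -0.23 to 0.76 and -0.41 to 0.79. Leaving out a library leaves a lone sample assumed to vary like the other groups.

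The labels give each group replicates 1 and 2 and do not state that equal numbers pair the samples. Same-numbered libraries showed no strong shared deviation over all genes, with correlations of -0.08 to 0.063. These values cannot settle whether the samples were paired, since spread within single genes can hide a weak shared shift. With the replicate number as a block, 37 members fell and 1 rose under drought in WT plants, 41 fell in OE plants, LHCB1.1 was called in WT plants (-1.69, adjusted p = 0.0347) and OE plants (-1.45, adjusted p = 0.0447), and LHCB4.2 was not called in WT plants (-0.59, adjusted p = 0.0683). No other member's call changed with the block. Calls over all genes for OE against WT under drought numbered 31 higher and 26 lower, against 151 and 82 in the fit of only the 4 libraries compared, and in watered plants 57 and 18, against 116 and 55 by DESeq2, 136 and 302 without the second watered WT library and 29 and 31 without the TMM factor. For the difference of the responses they numbered 19 and 12, against 72 and 74 by DESeq2.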
